A study of Mus musculus with 12 samples.

Results

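The nuclear-encoded subunit genes of the respiratory chain were followed in liver RNA-seq of mice fed a high-fat diet (HFD). Genes were taken by symbol from the deposited expression table (the Ndufa, Ndufb, Ndufc, Ndufs and Ndufv series without the Ndufaf assembly factors, Sdha to Sdhd, the Uqcr series, the numbered Cox subunits and the Atp5 series). The rule takes symbols and no measured value, although it was set with earlier results of these data known, and it gave 82 of 23849 gene symbols. Complex I holds 37 of them, complex II 4, complex III 8, complex IV 16 and complex V 17. The samples were livers of 12 male mice of C57BL/6J background in 4 groups of 3, described as 8 weeks old. All were fed HFD. The mice were given either vehicle (drinking water) or Policaptil Gel Retard by daily gavage for 2 weeks. The paper places these 2 weeks at the end of a longer period on HFD. Policaptil Gel Retard is a gel-forming fiber blend that the sample labels call Libramed. Livers were collected at ZT0, when the lights go on, or at ZT12, when they go off and mice start to feed. The paper places the daily gavage shortly before lights off. By that schedule ZT12 livers were taken sooner after a gavage than ZT0 livers, and hour and time since gavage cannot be told apart. The labels call the samples biological replicates, a group on a normal diet was not analysed here, and by their labels the 4 groups differ in product and hour and share the diet.

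The respiratory chain sits in the inner mitochondrial membrane. Complexes I and II take electrons from NADH and succinate, complex III passes them through cytochrome c to complex IV, which reduces oxygen, and the proton gradient built on the way drives complex V, the ATP synthase. Liver is rich in mitochondria, and its oxidation of fatty acids feeds electrons to this chain. Except in complex II, the mitochondrial genome encodes some core subunits, and the nuclear genome encodes the rest. The mitochondrially encoded subunits were not analysed here. The choice by symbol leaves out some true subunits, among them Ndufab1 (7.48 to 15.0 FPKM across libraries), Cox4i1 (1133 to 1480 FPKM) and Cyc1 (234 to 300 FPKM, the heme-bearing cytochrome c1 of complex III). It takes in 4 genes whose names are older than their roles: Ndufa4, now known as a subunit of complex IV, Cox7a2l, which helps join complexes into supercomplexes, and Atp5s and Atp5sl, which are no structural ATP synthase subunits. They are kept here under the complex of their symbol.

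FPKM is reads scaled by gene length and by the reads of the library, so levels can be compared between genes. The table gives no counts, and precision therefore rests on the spread between the 3 mice of a group. Of the 82 genes, 75 averaged 1 FPKM or more across the 12 libraries and were tested among 9806 genes (37 of complex I, 4 of II, 8 of III, 11 of IV and 15 of V). Hepatocyte markers were high, with Apoa1 at 20223 to 32458 FPKM, and Ucp1, the marker of brown fat, was at 0 in every library. The 5 genes listed for brown fat, Ucp1 among them, summed to 7.72 to 15.4 FPKM across libraries. Skeletal muscle and heart genes were listed at or near 0 in 11 libraries, but all 7 were above 0 in replicate 3 of Policaptil Gel Retard at ZT12, where they summed to 44.0 FPKM. Because the tissue is bulk liver, fewer cells of a type and less RNA per cell cannot be told apart. The members took 4.02% to 4.70% of the summed FPKM of a library.

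Promoter sequences are shown first for members that were higher with the product at p under 0.05 in the comparison with vehicle over both times. None of these members held after adjustment. Atp5sl was added, as it was higher at ZT12 in both treatments at p under 0.05. The sequences are the 250 bases before the RefSeq transcription start (GRCm38.p6). They are given where at most 30 of those bases lie inside the annotated gene, which was so for 4 of the 10 genes of that comparison. The windows are chr4:123718187-123718436 for Ndufs5 and chr4:116075071-116075320 for Uqcrh, both on the minus strand, chr9:57520982-57521231 for Cox5a on the plus strand, chr19:44555443-44555692 for Ndufb8 on the minus strand, and chr7:25619164-25619413 for Atp5sl, listed as Dmac2 in the reference, on the plus strand. Capitals mark the letters of a searched motif.
Ndufs5: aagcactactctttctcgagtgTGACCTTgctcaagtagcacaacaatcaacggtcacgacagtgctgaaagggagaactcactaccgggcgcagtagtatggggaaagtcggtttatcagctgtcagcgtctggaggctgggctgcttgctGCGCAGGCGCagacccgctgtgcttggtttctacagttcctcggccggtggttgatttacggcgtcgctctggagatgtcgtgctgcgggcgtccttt
Uqcrh: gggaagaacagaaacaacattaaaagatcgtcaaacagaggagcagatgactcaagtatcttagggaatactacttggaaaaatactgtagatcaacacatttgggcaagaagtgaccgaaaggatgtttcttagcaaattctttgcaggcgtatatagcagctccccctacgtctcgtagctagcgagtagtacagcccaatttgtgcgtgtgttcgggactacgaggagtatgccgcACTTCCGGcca
Cox5a: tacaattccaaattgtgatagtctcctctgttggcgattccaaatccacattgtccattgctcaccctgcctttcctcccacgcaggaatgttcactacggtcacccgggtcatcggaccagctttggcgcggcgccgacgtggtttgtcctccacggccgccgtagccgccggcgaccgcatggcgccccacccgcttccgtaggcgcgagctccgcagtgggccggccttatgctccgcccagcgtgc
Ndufb8: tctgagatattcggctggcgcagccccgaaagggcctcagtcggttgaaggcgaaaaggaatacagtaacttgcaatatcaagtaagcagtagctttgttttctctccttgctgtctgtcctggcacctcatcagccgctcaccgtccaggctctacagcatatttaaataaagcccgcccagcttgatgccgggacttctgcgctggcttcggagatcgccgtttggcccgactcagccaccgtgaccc
Atp5sl: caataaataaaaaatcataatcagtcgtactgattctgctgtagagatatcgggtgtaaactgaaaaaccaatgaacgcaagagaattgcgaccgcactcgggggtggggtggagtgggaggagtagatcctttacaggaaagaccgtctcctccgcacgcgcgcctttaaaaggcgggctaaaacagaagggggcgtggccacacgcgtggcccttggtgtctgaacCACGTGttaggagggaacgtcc

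Both strands were searched for the letters of the NRF1 motif, CCGGAAGT of GABP, AAGGTCA of the estrogen-related receptors (ERR), AAGATGGC of YY1 and CACGTG, the E-box of CLOCK and BMAL1, factors known to act on mitochondrial or circadian genes. No motif contains another, and the shares count the window of 250 bases before to 50 bases after the start. Ndufs5 held the NRF1 letters, starting 98 bases before the start, and the ERR letters, starting 228 bases before it. Uqcrh held the GABP letters, starting 11 bases before the start. Atp5sl held the E-box, starting 22 bases before it. Cox5a and Ndufb8 held none in the bases printed. Of the 67 members with a promoter entry, 25.4% held the NRF1 letters, against 12.6% of the tested genes with an entry and 5.19% of all genes in the reference. For YY1 the shares were 14.9%, 5.87% and 3.19%, and for ERR 11.9%, 4.35% and 5.38%. The GABP letters stood in 7.46% of members and 10.1% of tested genes, and the E-box in 8.96% and 12.5%. Among members with an entry, NRF1 letters were found in 7 of 32 of complex I, 2 of 3 of II, 1 of 5 of III, 1 of 13 of IV and 6 of 14 of V. YY1 letters were found in 7 of the 32 of complex I, 3 of the 14 of complex V and no other complex. A match describes the letters only, and no test of these shares was made.

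Subunit genes were among the most abundant transcripts of the liver. Their median level was 261 FPKM, against 7.79 FPKM for all genes tested, 60 of the 75 were over 100 FPKM, 60 ranked in the top 1000 and 9 in the top 100. The median by complex was 240 FPKM for complex I, 211 for II, 481 for III, 403 for IV and 521 for V. The highest was Uqcrq (1864 FPKM), a small complex III subunit, followed at the top of the other complexes by Atp5e (1771 FPKM), a subunit of the central stalk of ATP synthase, Ndufa4 (1311 FPKM), Cox6b1 (1077 FPKM), which lies on the intermembrane side of complex IV, and Sdhb (287 FPKM), the iron-sulfur subunit of succinate dehydrogenase. At the low end stood Uqcrc2 of complex III (150 FPKM), Sdha, the flavoprotein of complex II (143 FPKM), Cox7a1 (7.67 FPKM), Atp5s (3.36 FPKM) and Ndufa4l2 (3.00 FPKM). Complex II was the most even, from 143 to 287 FPKM over its 4 genes. By symbol, complex I and complex V each ran from about 3 FPKM to over 1000. The ends of complex I were Ndufa4l2 and Ndufa4, and its other members ran from Ndufb4 (20.8 FPKM) to Ndufa3 (782 FPKM). The low end of complex V was Atp5s. Apart from Atp5s and Atp5sl, its lowest tested member was Atp5g1 (68.8 FPKM). The within-group coefficient of variation had a median of 8.86% over the members and 11.6% over all genes tested. It was lowest for Ndufv1, the NADH-binding subunit of complex I, at 4.85%, and highest for Ndufa4l2, at 29.5%.

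**Figure D1:**
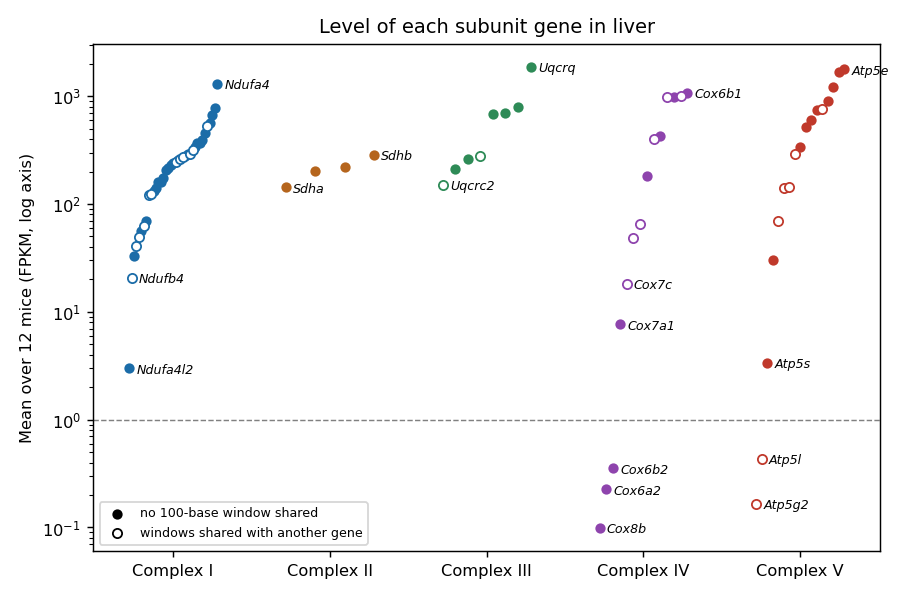
Mean FPKM over the 12 mice (log axis) of each member above 0, by complex. Dashed line, the minimum of 1 FPKM for testing; open circles, genes that share 100-base windows with another gene. Most genes lie above 100 FPKM, with Atp5l, Atp5g2, Cox6a2, Cox6b2 and Cox8b under the line.

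Where a subunit exists as several isoforms, 1 isoform carried most of the liver signal. Cox6a1 averaged 1013 FPKM and its heart and muscle counterpart Cox6a2 0.226 FPKM. Cox6b1 stood at 1077 FPKM and Cox6b2, a testis isoform, at 0.353 FPKM. Cox8a had a mean of 981 FPKM, whereas Cox8b was at 0.0991 FPKM and Cox8c was at 0 in all libraries, as was Cox7b2 beside Cox7b at 180 FPKM. Cox7a2, the liver form, averaged 427 FPKM, Cox7a2l 64.8 FPKM and the muscle form Cox7a1 7.67 FPKM. Of the 3 genes for the c ring of ATP synthase, Atp5g3 had 1211 FPKM, Atp5g1 68.8 FPKM and Atp5g2 0.166 FPKM. Ndufa4l2, which is known as a hypoxia-induced relative of Ndufa4, stood at 3.00 against 1311 FPKM. The highest Cox6a2 value (1.27 FPKM) and the highest Cox8b value (0.774 FPKM) were both in replicate 3 of Policaptil Gel Retard at ZT12, the library with the muscle genes above 0. The part of that material in these 2 values was not tested. They were under the minimum, so neither entered a comparison.

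Some low levels concern genes with near-identical copies, and a read that fits 2 places would be discarded under the uniquely aligned counting that the methods describe. The labels name TopHat and Cuffnorm instead, and which of these made the table is not given in the sources used here. Exact 100-base windows shared with the transcripts of another annotated gene were found in 27 members and in none of the other 55. The search took in annotations that overlap the same locus, such as Pdzd9 for Uqcrc2. A window shared in that way need not have a second place in the genome, so the 27 are not a count of genes with copies. Atp5l, an ATP synthase membrane subunit, had 69.0% of its windows in copies such as Atp5l-ps1 and was listed at 0.431 FPKM. Ndufb4 of complex I shared 33.4% with Ndufb4c and stood at 20.8 FPKM, and Cox7c of complex IV shared 19.7% with Gm10012 and Gm12338 and stood at 18.2 FPKM. Atp5h shared 29.5% and still reached 140 FPKM. The levels of these genes are uncertain to the extent that such reads were lost.

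Before the comparisons, the members were read library by library, as the median log2 deviation of the 75 genes from their mean over the 12 libraries. In vehicle mice at ZT0 the medians were 0.01, -0.19 and -0.05, and at ZT12 they were -0.0048, -0.0044 and -0.00083, close to 0 in all 3. In mice given Policaptil Gel Retard they were 0.06, -0.16 and 0.07 at ZT0 and 0.13, -0.0010 and 0.07 at ZT12. Replicate 2 of both groups at ZT0 stood lowest, and in these 2 libraries all 5 complexes were low together. The 637 tested genes with transcripts under 1000 bases had medians of -0.16 and -0.12 in the same 2 libraries, so short transcripts in general were low there. Results that rest on the ZT0 groups are therefore given with and without these 2 libraries, and with the trends on transcript length and GC content removed.

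**Figure D2:**
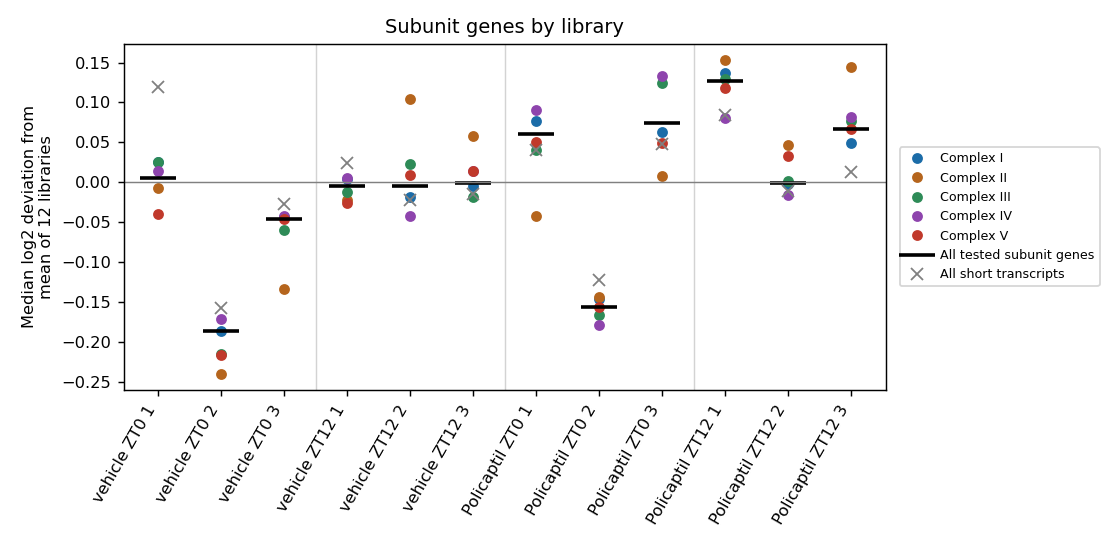
Median log2 deviation (vertical axis) of the tested members of each complex from their mean over the 12 libraries, for each library (horizontal axis). Black bars, all 75 members; grey crosses, the 637 short transcripts. The lowest bars are vehicle ZT0 replicate 2 and Policaptil ZT0 replicate 2.

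The comparison of Policaptil Gel Retard with vehicle over both times asked whether the tested product changed subunit levels irrespective of the hour. It used all 12 mice and gave 10 of 75 members higher with the product at p under 0.05 and 0 lower, where 4.03% of all genes tested were higher, 6.42% lower and 10.5% either. The differences were small, between 0.15 and 0.37 on the log2(FPKM + 1) scale. The 10 genes were Ndufs5, Ndufa12, Ndufb8, Ndufb9 and Ndufb10 of complex I, Uqcrb and Uqcrh of complex III, Cox5a of complex IV, and Atp5f1 and Atp5k of complex V. No gene of the whole table reached an adjusted p under 0.05 in this comparison by limma with Benjamini-Hochberg adjustment, so none of the 10 is a call after adjustment. The difference was above 0 for 56 of the 75 members, against 43.1% of all genes tested, with a median of 0.06 against -0.02. That median was 0.025 without Policaptil ZT0 replicate 3, 0.029 without vehicle ZT0 replicate 2, 0.037 without Policaptil ZT0 replicate 1 and 0.096 without Policaptil ZT0 replicate 2. With each library scaled to the same sum it was 0.027, with 50 members above 0, against -0.05 for all genes. For the comparison lists of similar kind, the median was -0.02 for 70 cytosolic ribosomal protein genes, 0.00 for 73 mitochondrial ribosomal protein genes and 0.02 for 36 proteasome genes. By complex, the members higher at p under 0.05 were 5 of 37, 0 of 4, 2 of 8, 1 of 11 and 2 of 15 for complexes I to V. All 7 core subunits of complex I missed that threshold, and the 5 genes were among its 30 other subunits. The direction was alike in both sets: 6 of the 7 were above 0 (median 0.04), and 23 of the 30 (median 0.06).

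Uqcrb, the subunit of complex III that helps bind ubiquinone, had the smallest p. It was at 231, 231 and 254 FPKM in vehicle mice at ZT0 and 283, 268 and 270 at ZT12, and at 296, 249 and 304 FPKM with the product at ZT0 and 339, 307 and 315 at ZT12. The 3 mice given the product at ZT12 were all above the 3 vehicle mice at that hour, whereas at ZT0 replicate 2 lay within the vehicle range. The difference over both times was 0.23 on the log2 scale (SE 0.06, limma p = 0.0035, adjusted p = 0.308, exact permutation p = 0.01, where 0.005 is the smallest p that 400 arrangements within time allow).

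Ndufs5, an accessory subunit of complex I on the intermembrane side, whose promoter is shown above with NRF1 and ERR letters, had 120, 99.9 and 109 FPKM in vehicle mice at ZT0 and 117, 117 and 116 at ZT12. Treated mice had 132, 115 and 133 FPKM at ZT0 and 128, 131 and 148 at ZT12. All 3 treated mice at ZT12 were above the vehicle mice, and 2 of 3 were at ZT0. Its difference was 0.21 (SE 0.06, p = 0.0074, adjusted p = 0.353 by limma, exact permutation p = 0.01).

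Ndufa12, an accessory subunit near the electron-input arm of complex I, gave the largest difference of the 10, at 0.37 (SE 0.12, p = 0.0093, adjusted p = 0.364 by limma, exact permutation p = 0.025). In vehicle mice it was at 57.6, 41.7 and 54.8 FPKM at ZT0 and at 63.3, 58.4 and 53.3 at ZT12. Mice given the product had 79.8, 53.8 and 77.2 FPKM at ZT0 and at 81.7, 63.8 and 70.5 at ZT12. The 2 treatments did not overlap at ZT12 and overlapped at ZT0 through replicate 2.

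Ndufb10, a subunit of the membrane arm of complex I, was at 291, 300 and 355 FPKM at ZT0 and 372, 398 and 400 at ZT12 in vehicle mice, and at 437, 323 and 477 FPKM at ZT0 and 490, 411 and 461 at ZT12 with the product. Again replicate 2 at ZT0 was the treated mouse within the vehicle range. The difference was 0.29 (SE 0.10, p = 0.012, adjusted p = 0.368 by limma, exact permutation p = 0.02). Atp5f1, the b subunit of the peripheral stalk of ATP synthase, differed by 0.15, with 139, 118 and 132 FPKM against 150, 140 and 148 at ZT0, and 139, 138 and 144 against 148, 151 and 162 at ZT12. Its groups did not overlap at either hour, and its exact permutation p of 0.005 was the smallest possible (limma p = 0.019, adjusted p = 0.395).

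The remaining 5 of the 10 were Uqcrh, the hinge subunit of complex III, with a difference of 0.21, Cox5a, a matrix-side subunit of complex IV, with 0.20, Atp5k with 0.18, Ndufb8 with 0.18 and Ndufb9 with 0.15. Cox7c had the largest difference of all members, 0.38, and missed the threshold (SE 0.18, adjusted p = 0.505 by limma). The lowest were Ndufb4 at -0.20 (adjusted p = 0.634) and Atp5s at -0.15 (adjusted p = 0.650). Of the 25 tested members that share windows with another gene 7 were among the 10, and of the other 50 members 3. The part of shared windows in these differences was not tested.

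The count of 10 depended on single mice. It was 21 without replicate 2 of Policaptil Gel Retard at ZT0, and 6 when replicate 1 of either ZT12 group or replicate 3 of treated mice at ZT0 was left out. Without both replicates 2 at ZT0 it was 13, and with length and GC trends removed 14, all higher with the product. Ndufa12, Uqcrb, Ndufb10, Ndufs5 and Atp5f1 each kept p under 0.05 in all 22 alternatives, and the other 5 genes in 12 to 20 of them. The markers of macrophages and Kupffer cells moved the other way at ZT0: 5 of 7 tested genes were lower with the product at p under 0.05, and the 9 genes summed to 57.6 to 67.4 FPKM in vehicle mice and 32.5 to 53.0 FPKM with the product. Over both times all 7 were below 0, with a median of -0.29 and 1 of them at p under 0.05. The 10 hepatocyte markers summed to 46049 to 50911 FPKM in vehicle mice and 50591 to 61726 with the product at ZT0, and to 46169 to 52701 and 49313 to 55894 FPKM at ZT12. Their median difference was 0.02 at ZT0, where 5 were above 0, and 0.17 at ZT12, where 7 were. Over both times 2 of the 10 were higher and 1 lower at p under 0.05, with a median of 0.07. The part of these cell types in the subunit differences was not tested.

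**Figure D3:**
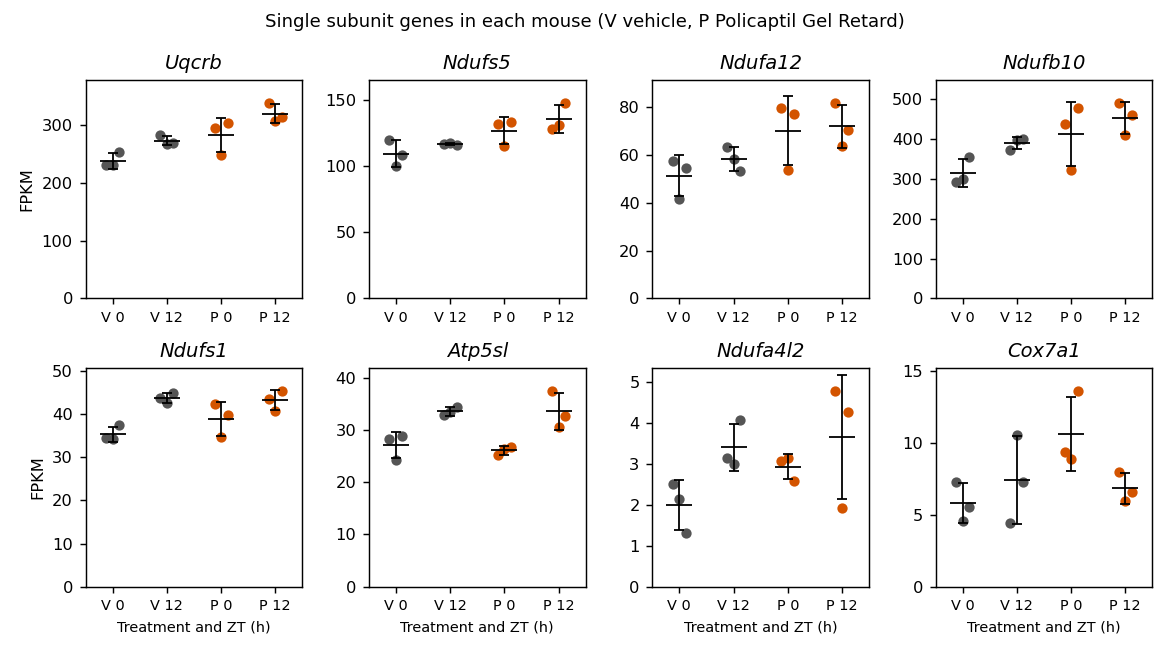
FPKM in each mouse for 8 members, with vehicle (V) in grey and Policaptil Gel Retard (P) in orange at ZT0 and ZT12; bars give the mean and SD of 3 mice and every axis starts at 0. The 3 treated mice at ZT12 stand above the 3 vehicle mice in the 4 upper panels, and Cox7a1 is highest with the product at ZT0.

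Within ZT12 the product was compared with vehicle in 6 mice. Of the 75 members 5 were higher at p under 0.05 and 0 lower, with 3.07% of all genes tested higher, 3.67% lower and 6.74% either. They were Uqcrb (0.22, SE 0.07), Cox5a (0.23, SE 0.08), Ndufs5 (0.21, SE 0.07), Ndufa12 (0.30, SE 0.11) and Ndufb10 (0.22, SE 0.09), each with an adjusted p of 0.729 by limma and an exact permutation p of 0.1, the smallest that 20 arrangements allow. In 13 members the 3 treated mice were all above the 3 vehicle mice and in 0 all below, whereas this held for 5.88% and 7.26% of all genes tested. The difference was above 0 for 63 of 75 members (45.6% of all genes tested), and its median was 0.07 against -0.01, or 0.03 without Policaptil replicate 1. Complex I took 8 of the 13 and 3 of the 5. Of the 25 tested members that share windows with another gene 4 were among the 5 (16%), and of the other 50 members 1 (2%). In both of these sets 84% of members were above 0. The part of shared windows in the ZT12 differences was not tested. The lowest differences were Atp5s at -0.24 and Ndufb4 at -0.21, both with overlapping groups. Left-out libraries moved the count of 5 between 1, without vehicle replicate 3, and 8, without Policaptil replicate 2. It was 2 without vehicle replicate 2 or Policaptil replicate 3, and 3 without Policaptil replicate 1. Scaling each library to the same sum brought the members above 0 to 43, their median to 0.0082 (against -0.07 for all genes) and the count to 2, with 1 higher and 1 lower.

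At ZT0 the same comparison gave 2 of 75 members higher at p under 0.05 and 0 lower, with 3.42% of all genes tested higher, 5.81% lower and 9.23% either, so the share of members was near the background. In 3 members the groups did not overlap with the product higher, and in 0 with it lower (5.19% and 9.94% of all genes tested). The difference was above 0 for 49 of the 75 (45% of all genes tested), with a median of 0.04 against -0.02. Single mice moved that median: it was 0.0015 without vehicle replicate 2 (38 of 75 above 0), 0.0071 without Policaptil replicate 3 (39 above 0), 0.017 without Policaptil replicate 1, 0.10 without vehicle replicate 1 and 0.13 without Policaptil replicate 2 (63 above 0). Without both replicates 2 it was 0.06, and with the length and GC trends removed 0.05. Ndufa12 (0.44, adjusted p = 0.545) and Ndufb10 (0.37, adjusted p = 0.564) missed the threshold by limma, and Cox5b, a matrix-side subunit of complex IV, was lowest at -0.24 (adjusted p = 0.664). Without replicate 2 of the treated group the count was 9, without replicate 1 of that group 1, and without vehicle replicate 1 it was 4. Without both replicates 2 it was 5, and with the trends removed 4.

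Both members higher at ZT0 were low-level isoforms. Cox7a1 was at 7.31, 4.54 and 5.56 FPKM in vehicle mice and at 9.35, 8.92 and 13.6 FPKM with the product, with no overlap and a difference of 0.77 (SE 0.20, p = 0.0057, adjusted p = 0.436 by limma, exact permutation p = 0.1). Ndufa4l2 was at 2.51, 2.14 and 1.31 FPKM against 3.07, 3.14 and 2.59, a difference of 0.42 (SE 0.16, p = 0.037, adjusted p = 0.527 by limma, exact permutation p = 0.1). Both have 0 windows in common with another gene.

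Cox7a1 was also the member past p under 0.05 by limma when the effect of time was compared between treatments, though not after adjustment. At ZT12 it was at 4.40, 10.6 and 7.30 FPKM in vehicle mice and at 7.99, 5.94 and 6.58 FPKM with the product. From ZT0 to ZT12 it was therefore lower in treated mice, with a difference of -0.55 (SE 0.17, p = 0.014, adjusted p = 0.0769 by limma, exact permutation p = 0.1) with no overlap, and its difference in vehicle mice was 0.26 (SE 0.28, adjusted p = 0.606) with overlap. The interaction was -0.81 (SE 0.36, p = 0.044, adjusted p = 0.740 by limma, exact permutation p = 0.115). It was the only member past p under 0.05 in the interaction, where 0 were higher and 1 lower, with 3.82% and 2.8% of all genes tested and 6.63% either way. The next lowest member was Ndufa4l2 (-0.39, adjusted p = 0.869), and the highest were Cox5b (0.29, adjusted p = 0.827) and Atp5o (0.19, adjusted p = 0.874). The median interaction of the members was 0.00, with 38 of 75 above 0 (50.9% of all genes tested). The interaction kept p under 0.05 in 12 of 22 alternatives and ranged from -1.10 to -0.55 over them. Among them, it lost p under 0.05 when replicate 2 or 3 of either vehicle group, replicate 3 of treated mice at ZT0, or replicate 2 or 3 of treated mice at ZT12 was left out (-0.80 to -0.55).

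Markers of other liver cells also differed between the hours. The 6 endothelial genes, each above 0, summed to 24.3 to 33.5 FPKM in vehicle mice and 31.0 to 39.6 with the product at ZT0, and to 12.4 to 21.1 and 19.7 to 20.9 FPKM at ZT12, with 70.6% to 78.1% of each sum from Clec4g. All 4 endothelial genes tested were lower at ZT12 at p under 0.05 in both treatments, with a median of -0.46 in vehicle mice, where the difference of Cox7a1 was 0.26, and -0.48 in treated mice, where it was -0.55. The 5 genes of stellate cells and fibroblasts summed to 31.1 to 57.5 and 47.4 to 64.5 FPKM at ZT0, and 28.8 to 45.0 and 23.4 to 41.6 FPKM at ZT12, with 80.8% to 88.4% from Dcn. Of their 4 tested genes, 4 were lower at ZT12 at p under 0.05 in treated mice (median -0.57) and 1 in vehicle mice (median -0.32, all 4 below 0). With the product at ZT0, where Cox7a1 was higher, 3 of the 4 endothelial genes (median 0.17) and all 4 stellate genes (median 0.30) were above 0, 1 of each at p under 0.05. Lyve1, an endothelial gene under the minimum, was at 0.690 to 1.27 FPKM in vehicle mice at ZT0 and 0.233 to 0.430 with the product. Of the 5 genes listed for brown fat, 1 was tested. Its difference with the product was 0.31 at ZT0 and 0.11 at ZT12, neither at p under 0.05. From ZT0 to ZT12 it was -0.26 in vehicle mice and -0.46 in treated mice. Only the latter was at p under 0.05 by limma, without overlap. The part of these cells and of fat in the Cox7a1 values was not tested. The muscle genes were at or near 0 in all 6 libraries at ZT0, where Cox7a1 was highest with the product.

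ZT12 was compared with ZT0 to find subunit genes that differ between the start and the end of the active phase. In vehicle mice 8 of 75 members were higher at ZT12 at p under 0.05 and 0 lower, against 14.4% and 13% of all genes tested (27.4% either way), so the share of members higher was near or under the background. In 15 members the 3 mice at ZT12 were all above those at ZT0, and in 0 all below (17.4% and 15.8% of all genes tested). None had an adjusted p under 0.05 by limma, where 5.62% of all genes tested did with higher and 4.78% with lower values. The difference was above 0 for 53 members (51.2% of all genes tested), with a median of 0.06 against 0.01. The 8 were Ndufs1, Ndufa10, Ndufb10 and Ndufa4l2 of complex I, Uqcrb and Uqcrc2 of complex III, Cox7a2l and Atp5sl.

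Ndufs1, the largest core subunit of complex I, which carries iron-sulfur clusters, came nearest to the adjusted threshold. It was at 34.4, 34.2 and 37.4 FPKM at ZT0 and 43.7, 42.7 and 45.1 at ZT12 in vehicle mice, with no overlap and a difference of 0.30 (SE 0.08, p = 0.0055, adjusted p = 0.0520 by limma, exact permutation p = 0.1). Treated mice had 42.4, 34.8 and 39.8 FPKM at ZT0 and 43.7, 40.8 and 45.3 at ZT12. The groups overlapped there and the difference was 0.15 (SE 0.10, adjusted p = 0.348). Ndufa4l2 had the largest difference, 0.58 (SE 0.18, p = 0.014, adjusted p = 0.0870 by limma, exact permutation p = 0.1), from the 3 low values given above to 3.15, 3.01 and 4.07 FPKM at ZT12. With the product at ZT12 it was at 4.77, 1.92 and 4.28 FPKM, which overlapped with ZT0.

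In mice given Policaptil Gel Retard 2 of 75 members were higher at ZT12 at p under 0.05 and 1 lower, against 15.7% and 13.4% of all genes tested (29.2% either way). In 11 the groups did not overlap with ZT12 higher, and in 1 with ZT12 lower (19% and 15.8% of all genes tested). Again no member had an adjusted p under 0.05, where 7% of all genes tested did with higher and 5.36% with lower values. The difference was above 0 for 58 members (52.4% of all genes tested), and the median was 0.07. The member lower was Cox7a1, and those higher were Atp5sl and Uqcrc2. Sdhb was next to the highest at 0.29 without passing (SE 0.14, adjusted p = 0.220 by limma), and Ndufs6 was next to the lowest at -0.10 (adjusted p = 0.555).

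Atp5sl and Uqcrc2 passed p under 0.05 in both treatments. Atp5sl, an assembly factor of the distal membrane arm of complex I under its current name Dmac2, was at 28.2, 24.2 and 28.9 FPKM at ZT0 and 32.8, 33.4 and 34.4 at ZT12 in vehicle mice. Treated mice had 25.1, 26.4 and 26.8 FPKM at ZT0 and 37.4, 30.6 and 32.7 at ZT12. No ZT0 mouse reached a ZT12 mouse in either treatment, and the differences were 0.30 (SE 0.09, adjusted p = 0.0828 by limma) and 0.35 (SE 0.09, adjusted p = 0.0546). Both held p under 0.05 in each of 18 alternatives. Uqcrc2, a core protein of complex III, was at 142, 138 and 138 FPKM at ZT0 and 167, 157 and 161 at ZT12 in vehicle mice. With the product it was at 139, 127 and 147 FPKM and at 163, 149 and 170 FPKM, again without overlap. Its differences were 0.21 (SE 0.07, adjusted p = 0.116 by limma) and 0.22 (SE 0.09, adjusted p = 0.160), and 22.7% of its windows are shared with the overlapping annotation Pdzd9.

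The sign of the median over the members depended on the scaling and on the low ZT0 libraries. It was 0.05 in both treatments with median-ratio scaling (52 and 53 of 75 members above 0) and 0.04 in both with the length and GC trends removed (49 and 53 above 0). With each library scaled to the same sum it was -0.01 in vehicle mice and -0.06 in treated mice, where the median of all genes was lower, at -0.05 and -0.10. After quantile normalization it was -0.02 and -0.05, against -0.0056 and -0.0073 for all genes. Without both replicates 2 at ZT0 it was -0.0030 and -0.02, against 0.0088 and -0.00072, and 37 and 32 of 75 members were above 0. Other single mice gave 0.11 (vehicle ZT0 replicate 1 left out), and in treated mice 0.10 and 0.11 (ZT0 replicates 1 and 3) and 0.03 (ZT12 replicate 1). After quantile normalization 17 members passed p under 0.05 in treated mice, 1 higher and 16 lower at ZT12. In vehicle mice the count was 5 when ZT0 replicate 2 was left out, and 4 when ZT12 replicate 2 or 3 was. In treated mice the count of 3 was 5 when ZT0 replicate 3 was left out and 6 when ZT12 replicate 2 was.

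**Figure D4:**
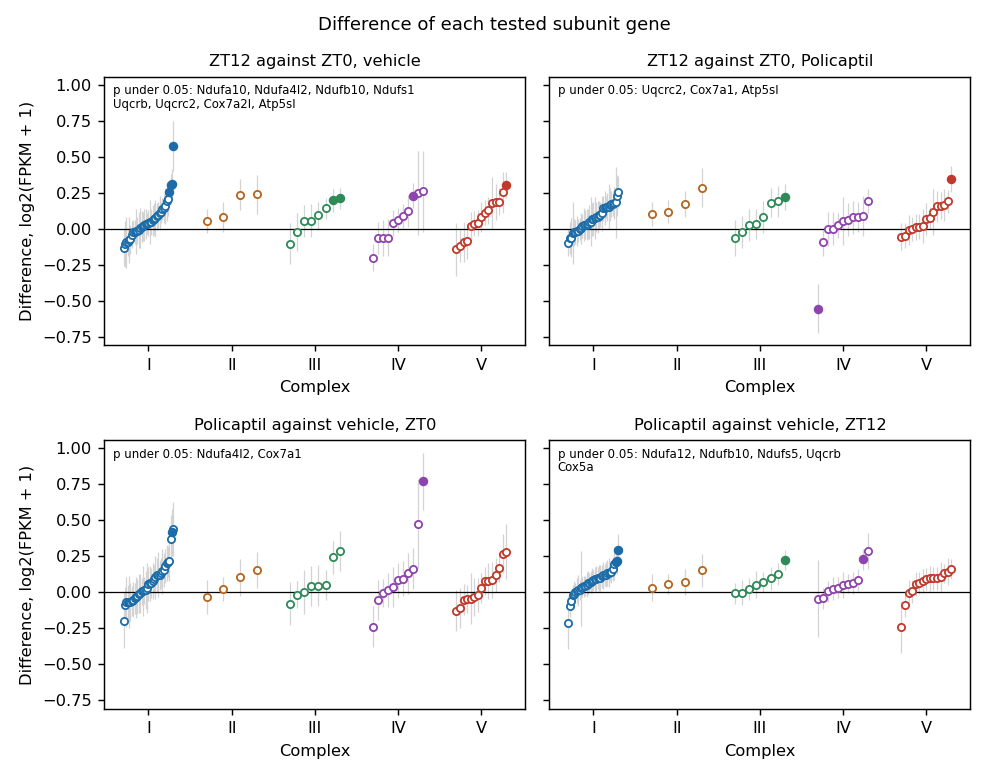
Difference in log2(FPKM + 1) with its SE (grey) for each tested member, by complex, in the 4 comparisons of 3 mice with 3. Filled circles are members with p under 0.05, named in each panel. Apart from Ndufa4l2 and Cox7a1, no difference is over 0.5 in either direction.

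Complex II, succinate dehydrogenase, is the only complex encoded wholly in the nucleus and also a step of the tricarboxylic acid (TCA) cycle. None of its 4 genes passed p under 0.05 in any of the 6 comparisons. Sdha was at 138 ± 3.8 and 144 ± 10.2 FPKM (SD, n = 3) at ZT0 and ZT12 in vehicle mice, and at 140 ± 4.3 and 151 ± 11.6 with the product. Sdhb was at 251 ± 27.2 and 296 ± 16.9 FPKM in vehicle mice, and at 270 ± 32.4 and 330 ± 47.3 with the product. Sdhc, a membrane anchor, was at 212 ± 25.4 and 224 ± 6.4 FPKM, and at 207 ± 16.2 and 233 ± 11.5. Sdhd, the other anchor, was at 181 ± 27.3 and 213 ± 20.1 FPKM, and at 200 ± 4.2 and 217 ± 13.1. The ZT12 mean was the higher in all 4 genes and both treatments, by differences of 0.05 to 0.29, none past the threshold. With each library scaled to the same sum the differences of Sdha were -0.01 and -0.02, and that of Sdhd in treated mice was -0.0070.

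For the members that did not pass p under 0.05, the intervals bound what could have been missed. The 95% interval of the difference lay within 0.5 of 0 on the log2 scale for 59 of the 67 such members over time in vehicle mice and 66 of 72 in treated mice. It did so for 62 of 73 at ZT0 and 65 of 70 at ZT12 in the comparison of product with vehicle, for 54 of 74 in the interaction and for 61 of 65 over both times. Over all 75 the median SE was 0.11 in both comparisons of time, 0.13 for the product at ZT0 and 0.08 at ZT12, 0.15 in the interaction and 0.08 for the product at both hours.

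Other genes of the pathway passed the adjusted threshold over time where no subunit did. Of 42 tested assembly factors of the complexes, 2 rose at ZT12 in vehicle mice and 4 in treated mice at adjusted p under 0.05, and 0 fell. These are 4.76% and 9.52% of the list, against 5.62% and 7% of all genes tested, so the shares are near the background, and over 18 alternatives the counts ran from 0 to 4 and from 1 to 5. Coa6, which helps deliver copper to complex IV, was at 59.8, 44.6 and 48.2 FPKM at ZT0 and 103, 75.1 and 93.3 at ZT12 in vehicle mice. With the product it was at 50.3, 42.7 and 39.8 FPKM and then at 79.0, 86.6 and 93.4 FPKM. The differences were 0.82 (SE 0.15, adjusted p = 0.024 by limma) and 0.95 (SE 0.11, adjusted p = 0.0042). Uqcc1, an assembly factor of complex III, rose by 0.46 (adjusted p = 0.014) and 0.34 (adjusted p = 0.048). Ndufaf4 and Ndufaf6 of complex I rose in treated mice by 0.59 (adjusted p = 0.017) and 0.68 (adjusted p = 0.016). With the product over both times, 1 assembly factor was higher and 6 were lower at p under 0.05 (2.38% and 14.3% of the list, against 4.03% and 6.42% of all genes tested), with 0 past the adjusted threshold.

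Of 13 TCA cycle genes, 1 rose in vehicle mice and 3 in treated mice at ZT12 at adjusted p under 0.05, and 0 fell. The shares are 7.69% and 23.1%, against the 5.62% and 7% of all genes tested, and over 18 alternatives the counts ran from 0 to 3 and from 0 to 4. Fh1, fumarase, was at 137, 127 and 143 FPKM at ZT0 and 202, 178 and 184 at ZT12 in treated mice, with no overlap and a difference of 0.47 (SE 0.09, adjusted p = 0.017 by limma). In vehicle mice it was at 178, 145 and 167 FPKM at ZT0 and 157, 176 and 157 at ZT12, where the hours overlapped. Dlst rose in vehicle mice by 0.33, and Idh3a by 0.43 and Suclg2 by 0.30 in treated mice. Of 15 regulators of mitochondrial biogenesis tested, 1 rose in vehicle mice and 2 in treated mice. These are 6.67% and 13.3% of the list, against the 5.62% and 7% of all genes tested. Over the alternatives the counts of regulators ran from 0 to 2 and from 0 to 3. Sirt3, a mitochondrial deacetylase, rose in vehicle mice by 0.45 (adjusted p = 0.042), and Esrra, the gene of an estrogen-related receptor, and Pprc1, a coactivator, rose in treated mice by 0.53 (adjusted p = 0.013) and 0.75 (adjusted p = 0.034). Of 14 genes for electron carriers and their synthesis, 1 fell in vehicle mice and 2 in treated mice. These are 7.14% and 14.3% of the list, against 4.78% and 5.36% of all genes tested with lower values. Over the alternatives 0 to 2 and 0 to 3 of the list were past the threshold. Adck3, needed for coenzyme Q, fell by 0.76 (adjusted p = 0.030) and 0.80 (adjusted p = 0.014). Cycs, cytochrome c, shared 24.7% of its windows with other genes, was listed at 0.812 to 1.83 FPKM and fell by 0.47 in treated mice (adjusted p = 0.031). Over 18 alternatives Coa6 kept an adjusted p under 0.05 in 12 in vehicle mice and 18 in treated mice, Fh1 in treated mice in 15, and Dlst in vehicle mice and Suclg2 and Uqcc1 in treated mice in 6. A gene that passed in 1 treatment was not tested here for a difference between treatments.

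**Figure D5:**
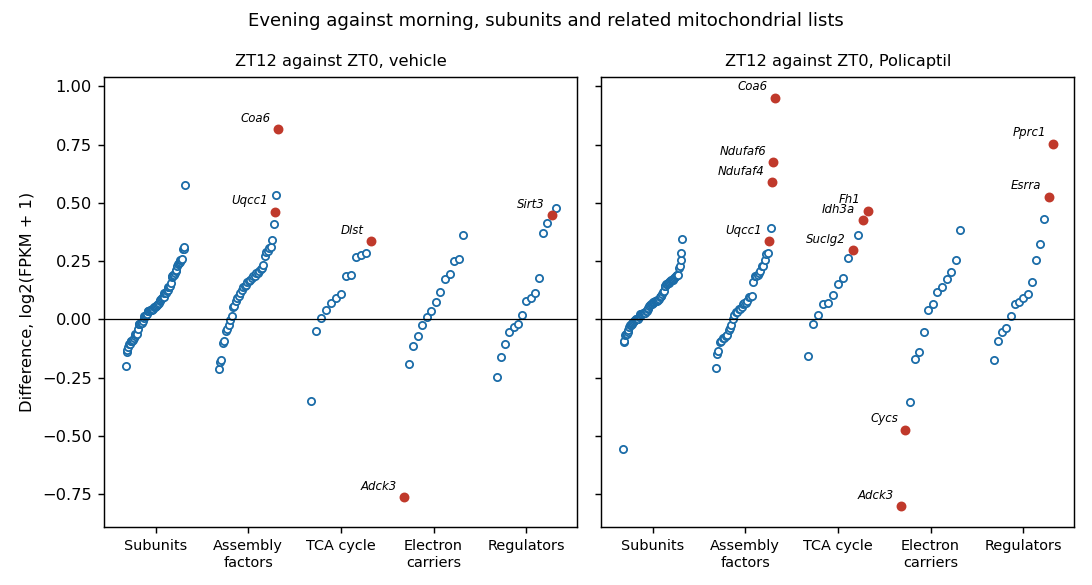
Difference between ZT12 and ZT0 in log2(FPKM + 1) for the tested subunits and for 4 lists of related genes, in vehicle mice (left) and with Policaptil Gel Retard (right). Filled red points, named, have an adjusted p under 0.05 by limma. No subunit is among them.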

How the data were processed

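Liver RNA-seq of 12 mice in 4 groups of 3 was taken from 1 table of FPKM values, which the authors made by alignment and by scaling reads to gene length and library total and then deposited per gene and library. It holds no counts, so depth in reads is not known. The labels name TopHat and Cuffnorm on mm10 (GRCm38), whereas the methods describe unique ELAND alignments. The labels also name the TruSeq RNA v2 kit, and the methods stranded mRNA libraries. Of 24138 lines, 289 repeat a symbol, and the highest mean was kept.

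Genes averaging 1 FPKM or more were compared on the log2(FPKM + 1) scale with limma 3.58.1 in R 4.3.3 (eBayes with trend, two-sided) and Benjamini-Hochberg adjustment over 9806 genes. Comparisons within a time or treatment used their 6 samples, and the interaction and the treatment over both times all 12. Exact permutations used 20 or 400 arrangements. The calculations were tested on simulated data. Transcripts and coordinates came from GENCODE vM21 and promoters from RefSeq, and all 82 members were annotated.

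Members and lists were chosen with earlier results of these data known. Genes were named by a rule: the 2 highest and 2 lowest differences of each comparison, and the highest and lowest level of each complex. It also took the Sdh genes, the isoform families, and members and listed genes with adjusted p under 0.05. No member met that threshold, and members with p under 0.05 were named besides. Alternatives covered the pseudocount, filters, scalings, length and GC trends, other fits, a Cyber-T style test, a replicate block and each library left out. Leaving out both replicates 2 at ZT0 was added after seeing the data. Replicate numbers were not taken to pair the mice: the correlations of same-numbered libraries ran from -0.28 to 0.34, with 4 of 18 above 0.1. Libraries with different numbers were not compared, so a batch shared by number was not tested. 1 gene of the pathway lists is not reported here.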

Additional observations from a re-analysis of the deposited data

Results flagged for a closer look

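For Cox7a1 the change between ZT0 and ZT12 was compared between the treatments, which gave an interaction of -0.81 (p = 0.044, adjusted p = 0.740 by limma, exact permutation p = 0.115). Of 75 members tested for this, it was the 1 with p under 0.05, and it did not hold after adjustment. Among all genes tested 6.63% had p under 0.05 in the interaction, so the share of members was under the background. The interaction of Cox7a1 kept p under 0.05 in 12 of 22 alternatives.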

How the results depend on the processing

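No member difference with p under 0.05, and no difference of a listed gene with an adjusted p under 0.05, turned its direction under an alternative. Of 28 named member differences that did not pass, 7 did. With an equal sum, Sdha over time went to -0.01 in vehicle and -0.02 in treated mice and Sdhd in treated mice to -0.0070 (-0.0016 after quantile normalization). With a library left out, Ndufa4l2 over time in treated mice went to -0.0013, Atp5g1 and Cox7a1 in vehicle mice to 0.06 and -0.0023, and Ndufb4 with the product at ZT0 to 0.01. Counts of members with p under 0.05 moved as follows. Over time in vehicle mice the count of 8 was 5 with scaling to an equal sum, 4 after quantile normalization, 3 with the Cyber-T style test, 4 with the replicate block and 5 without both replicates 2 at ZT0; single left-out libraries gave 4 to 11. Over time in treated mice the count of 3 was 5 with a pseudocount of 0.1, 6 without a minimum, 6 with an equal sum, 17 after quantile normalization, 5 with trends removed, 8 in a fit of all 12 samples, 5 with the block, and 2 to 6 with a library left out. The median there was -0.057 with an equal sum and -0.047 after quantile normalization. For the product at ZT0 the count of 2 was 1 without a minimum or with a minimum of 5 FPKM, 6 with median-ratio scaling, 7 with an equal sum, 9 after quantile normalization, 4 with trends removed, 7 in the fit of all samples, 5 with the Cyber-T style test, 6 with the block, 5 without both replicates 2, and 1 to 9 with a library left out. At ZT12 the count of 5 was 8 without a minimum, 9 with median-ratio scaling, 2 with an equal sum, 2 after quantile normalization, 8 with trends removed, 2 in the fit of all samples, 3 with the Cyber-T style test, and 1 to 8 with a library left out. The interaction count of 1 was 0 without a minimum, 2 after quantile normalization, 0 with the block, 0 without both replicates 2, and 0 to 1 with a library left out. Over both times the count of 10 ran from 6 to 21 with a library left out, and the other settings gave 9 to 14. The replicate block gave 13 there. It is a check only, because replicate numbers were not taken to pair the mice. Causes of these moves were not tested. The highest number of members with an adjusted p under 0.05 in any alternative was 3.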
